A study of Mus musculus with 14 samples.

Results

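The Hedgehog and PTHrP axis was followed through 14 cultured mouse bone marrow clones as 9 genes taken by symbol: the ligand genes Ihh and Pthlh, the receptor genes Pth1r, Ptch1 and Smo, the decoy receptor gene Hhip, and the transcription factor genes Gli1, Gli2 and Gli3. These were 9 of the 55427 genes in the TPM table (transcript abundance scaled for length and depth) and of 30503 in the table of counts. The rule that chose them names the genes and uses no value of theirs, but it was written with earlier results of these data known. Each library was bulk RNA-seq of a single clone grown from a tdTomato+ skeletal cell of femoral bone marrow, so that a group described several clones and not whole marrow. The groups were 5 Fgfr3-WT clones (Fgfr3-creER; R26R(tdTomato/+)) isolated at postnatal day 23 (P23), 5 Fgfr3-p53 cKO clones (Fgfr3-creER; Trp53fl/fl; R26R(tdTomato/+)) from P28, and 4 further clones of that cKO genotype from mice of 4 months (P4M). All mice had received tamoxifen at P21, which activates creER, carried by an Fgfr3-creER artificial chromosome transgene and meant to act in Fgfr3-expressing cells. The control clones thus carried the driver and the reporter too, and differed by their intact Trp53. Fgfr3-WT and P28 clones were labelled as passage 8, and P4M clones as passage 6 to 8. The labels do not say which clones came from the same mouse. A figure legend of the paper gives these group sizes both as clones and as mice. The p values thus measured the spread between these clones. The sample names of all Fgfr3-WT libraries begin with a shared number and those of all cKO libraries with a different shared number, which the labels do not explain. Fgfr3-WT clones came from P23 alone, so that genotype, age and whatever that number marks cannot be told apart. Total counts per clone ranged from 25688946 to 38958693 in Fgfr3-WT, from 37606033 to 48648618 in P28 and from 43757832 to 52857424 in P4M.

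In the growth plate, Indian hedgehog (Ihh) is secreted by prehypertrophic chondrocytes and acts on neighbouring chondrocytes and on osteoblast precursors. Hedgehog ligand binds Patched (Ptch1) and thereby lifts the inhibition of Smoothened (Smo), which signals through the primary cilium to the Gli factors. Gli2 acts mainly as an activator, Gli3 mainly as a repressor, and Gli1 is itself a target of the pathway, as are the genes of the negative regulators Ptch1 and Hhip. PTHrP, encoded by Pthlh, signals through the receptor Pth1r and cyclic AMP, keeps chondrocytes proliferating and delays the onset of Ihh expression. Pth1r is also the receptor for parathyroid hormone in cells of the osteoblast lineage.

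A RefSeq promoter window, from 250 bases before to 50 bases after a start site, was at hand for 8 of the 9 genes (10 windows, GRCm38.p6), and Gli1 had none. The windows were searched on both strands for the GLI binding motif TGGGTGGTC, for its core GGGTGGTC, which is contained in it, and for the cyclic AMP response element TGACGTCA. Neither GLI motif was in any of the 10 windows. Over all 32851 windows the motif was in 0.253% and the core in 0.807%. At such low shares no match was the likely outcome for 10 windows, so that its absence says nothing about regulation by Gli factors. Sequence outside the windows was not searched. The cyclic AMP response element was in 1 of the 10 windows, that of Hhip, against 1.79% of all windows. The Hhip stretch is shown because Hhip had the largest fitted difference of the 9 genes between genotypes. It lies at chr8:80058065-80058094 on the minus strand, and the capitals mark the element, 75 to 68 bases before the start site.
Hhip upstream stretch: gcgagcggcggTGACGTCAaggggcgcgcg
A match of letters is a description of the sequence, and whether any factor binds there was not measured.

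Trp53, the gene deleted in the cKO, was examined first in every clone. In CPM (counts scaled to a common library size by TMM), Trp53 was at 55.3, 49.9, 68.1, 50.4 and 51.1 in Fgfr3-WT replicates 1 to 5. It was at 2.47, 2.84, 2.36, 2.48 and 2.18 in the P28 clones and at 2.08, 2.37, 1.72 and 2.22 in the P4M clones. Every clone therefore matched its genotype label. The tdTomato reporter and the creER sequence were counted in all 14 clones, with at least 52469 and 106 counts. An eGFP sequence, which the genotype labels do not name, had 0 counts in every Fgfr3-WT clone, 1, 1, 1, 9 and 7 in P28 replicates 1 to 5, and 97, 36, 95 and 57 in the P4M clones.

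The P28 clones fell into 2 sets across all genes tested. Over 17358 genes, the Pearson correlation of log2 CPM was 0.969 to 0.980 among P28 replicates 1 to 3 and 0.976 between replicates 4 and 5, but 0.931 to 0.944 between the sets. Fgfr3-WT replicate 1 was also apart, with correlations of 0.878 to 0.907 with the other Fgfr3-WT clones, which correlated at 0.909 to 0.944 among themselves. These correlations are across genes, which are not independent replicates. For the 9 genes, values without either set of P28 clones are given, here or among the dependences on processing, where they changed a call or a direction.

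Of the 9 genes, 8 passed the expression filter and were tested, and Pthlh did not. In P4M clones against Fgfr3-WT, Ihh, Ptch1, Gli1, Pth1r and Hhip were higher and Smo was lower (edgeR, adjusted p below 0.05 over all genes). These 6 of 8 stand beside a background of 45.9% of all genes called, 22.3% higher and 23.6% lower. In P28 clones against Fgfr3-WT, Gli1 and Hhip were higher, that is 2 of 8, where 38.9% of all genes were called, 19.2% higher and 19.7% lower. Between P4M and P28, Smo alone of the 8 was called, and it was lower in P4M. There the background was 7.22%, with 3.34% higher and 3.88% lower. With both cKO groups joined against Fgfr3-WT, the same 6 genes were called as in P4M, beside 48.8% of all genes, 23.1% higher and 25.7% lower. The filter asked for 0.241 CPM or more in about as many clones as the smallest group has, and Ihh, Gli1 and Hhip reached it in 2, 3 and 0 of the 5 Fgfr3-WT clones. They were thus tested because of cKO clones with higher levels, and the counts of the 8 are a description. The comparisons with Fgfr3-WT share the same 5 control clones. In bulk RNA, fewer cells in a state and less RNA per cell cannot be told apart.

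**Figure D1:**
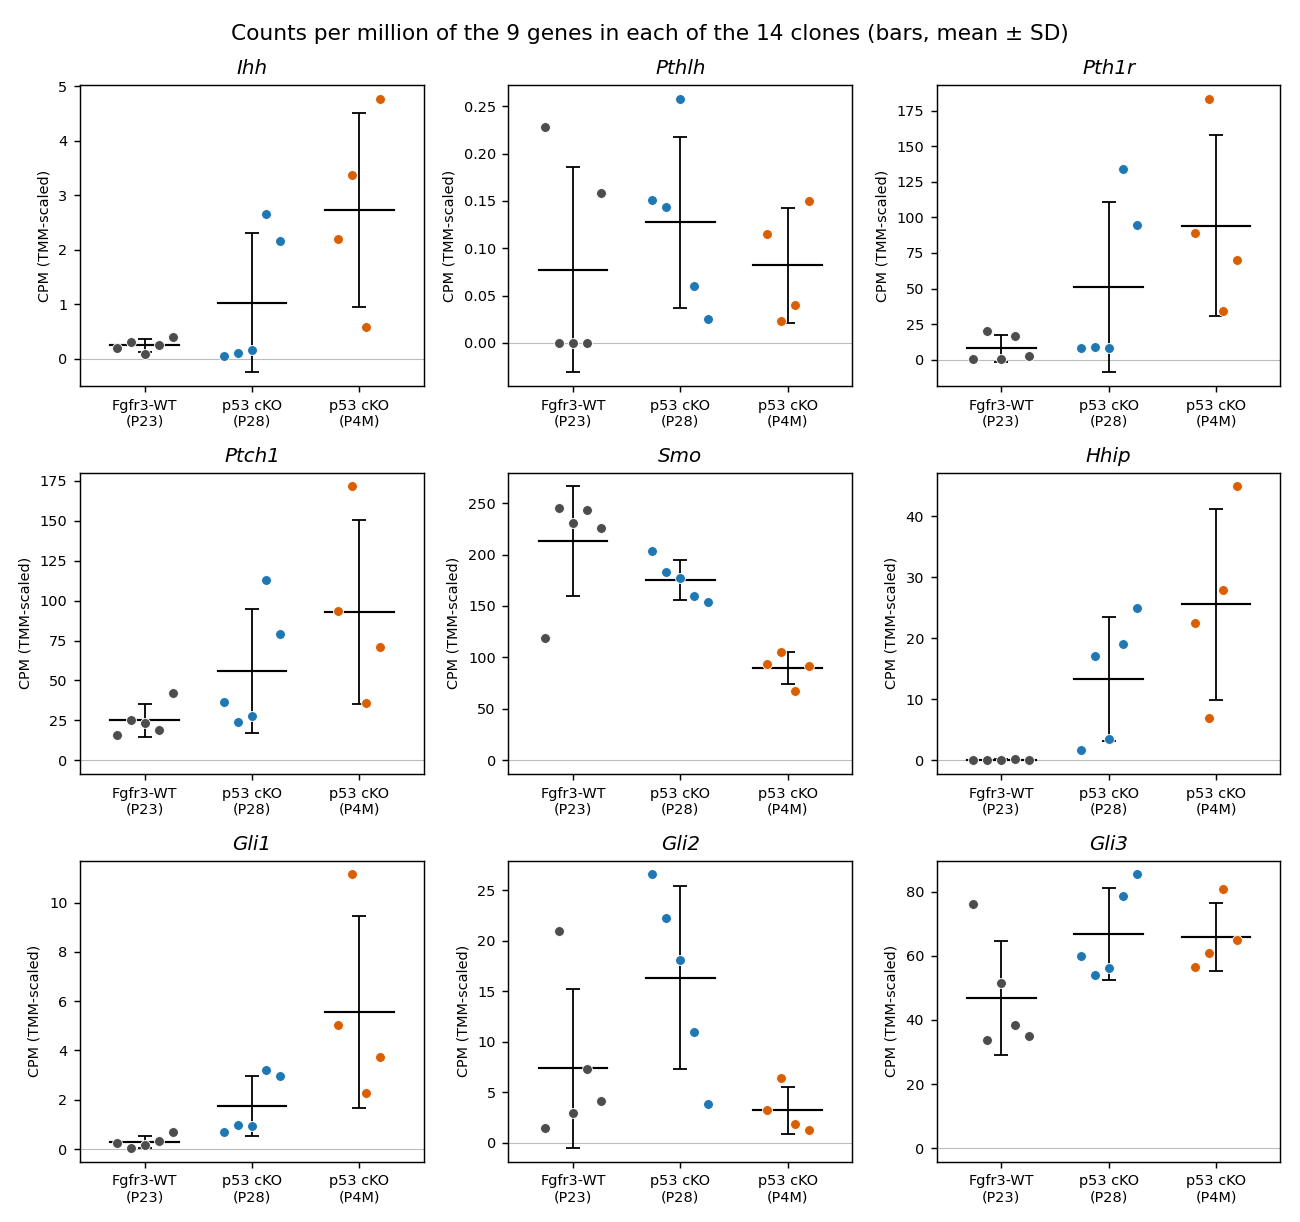
CPM (TMM-scaled, linear axis from each gene's own range) of the 9 genes in each clone, in the order of replicate numbers within a group, with the mean and SD as bars. Hhip was at 0 in 4 of the 5 Fgfr3-WT clones, and Smo was lowest in P4M. P28 replicates 4 and 5 lay above replicates 1 to 3 for Ihh, Pth1r, Ptch1, Gli1, Gli3 and Hhip. They lay below replicates 1 to 3 for Smo, Gli2 and Pthlh. These sets of P28 clones also differed across all genes, and the share of all genes that separate them is not given here.

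Ihh (chr1:74945315-74951672, mm10) was close to the detection limit in Fgfr3-WT, at 0.195, 0.306, 0.0809, 0.256 and 0.395 CPM, or 2 to 10 counts per clone. In P28 clones it was at 0.0430, 0.0956, 0.159, 2.66 and 2.15 CPM. In P4M clones it was at 2.19, 3.37, 0.572 and 4.77 CPM. All P4M clones were above all Fgfr3-WT clones, whereas in P28 only replicates 4 and 5 were. The log2 fold change against Fgfr3-WT was 3.45 ± 1.07 (SE) in P4M (edgeR, adjusted p = 0.0182) and 2.03 ± 1.01 in P28 (adjusted p = 0.125). Without P28 replicates 4 and 5 the P28 value turned to -1.31 (adjusted p = 0.200), and without replicates 1 to 3 it was 3.28 (adjusted p = 0.00702). Between P4M and P28 Ihh did not pass (log2 1.41, adjusted p = 0.386), but it did without P28 replicates 4 and 5 (log2 4.76, adjusted p = 0.00779). The call over all cKO clones (log2 2.74, adjusted p = 0.0310) was lost without P28 replicates 4 and 5 (adjusted p = 0.149). It was also lost, with adjusted p values up to 0.0680, when Fgfr3-WT replicate 1, 2, 3 or 4, P28 replicate 4 or P4M replicate 4 was left out alone.

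Pthlh (chr6:147252101-147264183) encodes PTHrP and was at the floor of the assay in all groups. It had 7, 0, 0, 0 and 4 counts in Fgfr3-WT, 7, 6, 13, 3 and 1 in P28, and 5, 1, 2 and 8 in P4M. Pooled over a group, this was 0.0750 CPM (exact Poisson 95% interval 0.0375 to 0.134) in Fgfr3-WT, 0.137 (0.0926 to 0.196) in P28 and 0.0825 (0.0472 to 0.134) in P4M. Such intervals cover counting error only. In the fit without an expression filter, its difference between any groups stayed below 1 on the log2 scale, and the lowest adjusted p was 0.589, so that no difference was detectable at this depth.

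Ptch1 (chr13:63508328-63573598), the receptor that holds Smo inactive until ligand binds, was at 15.7, 25.3, 23.5, 19.0 and 42.3 CPM in Fgfr3-WT. It was at 36.3, 23.8, 27.9, 112.9 and 79.1 CPM in P28 and at 93.7, 171.6, 35.9 and 70.9 CPM in P4M. P28 replicates 1 to 3 lay within the range of Fgfr3-WT, and P4M replicate 3 did too. Ptch1 was higher in P4M (log2 1.89 ± 0.518, edgeR adjusted p = 0.00979) and in all cKO clones (log2 1.52 ± 0.457, adjusted p = 0.0143). In P28 alone it did not pass (log2 1.15 ± 0.490, adjusted p = 0.0777). It passed there without P28 replicates 1 to 3 (log2 1.94, adjusted p = 0.0181) and without Fgfr3-WT replicate 5 (adjusted p = 0.0459), and fell to 0.19 without P28 replicates 4 and 5.

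Smo (chr6:29735503-29761365), the signal transducer of the pathway, went the other way. It was at 119.3, 245.6, 230.9, 243.8 and 226.2 CPM in Fgfr3-WT, at 203.5, 183.1, 176.9, 160.1 and 153.9 CPM in P28, and at 93.8, 104.9, 67.5 and 91.8 CPM in P4M. The P4M clones overlapped neither of the other groups, whereas Fgfr3-WT replicate 1 lay below every P28 clone. Smo was lower in P4M than in Fgfr3-WT (log2 -1.25 ± 0.206, edgeR adjusted p = 0.000417) and than in P28 (log2 -0.97 ± 0.204, adjusted p = 0.0157). The difference between P4M and P28 missed the threshold without P4M replicate 1 (log2 -0.97, adjusted p = 0.0501) and without P28 replicates 1 to 3 (log2 -0.81, adjusted p = 0.205). Between P28 and Fgfr3-WT it was -0.28 ± 0.189 (adjusted p = 0.257), and -0.46 without Fgfr3-WT replicate 1 (adjusted p = 0.0125). In all cKO clones Smo was lower than in Fgfr3-WT (log2 -0.77 ± 0.163, edgeR adjusted p = 0.00183). That call was lost with a minimum absolute log2 fold change of 1.

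Hhip (chr8:79965851-80058006), whose product binds Hedgehog ligands at the cell surface and limits their action, was nearly absent from Fgfr3-WT. It had 0 counts in 4 of the 5 Fgfr3-WT clones and 6 in replicate 4, or 0.0409 CPM pooled over the group (exact Poisson 95% interval 0.0150 to 0.0891). In P28 it was at 1.72, 17.1, 3.52, 19.1 and 24.9 CPM, and in P4M at 22.5, 6.96, 28.0 and 44.9 CPM. All 9 cKO clones were above all Fgfr3-WT clones. Pooled CPM values were 323-fold higher in P28 (95% counting interval 148 to 882) and 641-fold higher in P4M (294 to 1749). The call passed in both groups (edgeR, adjusted p = 0.000196 and 9.60e-05). The fitted log2 values of 8.26 and 9.21 depend on the prior count, and rose to 12.07 and 13.01 without Fgfr3-WT replicate 4, when the control was at 0. Among the P28 clones replicates 4 and 5 were the highest, with replicate 2 close below them.

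Pth1r (chr9:110722085-110747145), the receptor of PTHrP and parathyroid hormone, was at 0.163, 20.2, 0.768, 16.5 and 2.65 CPM in Fgfr3-WT, at 8.02, 8.91, 8.20, 134.1 and 94.5 CPM in P28, and at 89.0, 183.4, 34.1 and 70.1 CPM in P4M. Every P4M clone was above every Fgfr3-WT clone, as were P28 replicates 4 and 5, while P28 replicates 1 to 3 lay inside the control range. Pth1r was higher in P4M (log2 3.54 ± 1.24, edgeR adjusted p = 0.0316) and in all cKO clones (log2 3.10 ± 1.13, adjusted p = 0.0357), and did not pass in P28 (log2 2.65 ± 1.16, adjusted p = 0.0867). In P28 it was called by DESeq2 (adjusted p = 0.0256) and by limma on log2(TPM + 1) and log2(TPM + 0.1) (adjusted p = 0.0477 and 0.0370). Without P28 replicates 4 and 5 the P28 value was 0.02 and the call over all cKO clones was lost (adjusted p = 0.134). Without P28 replicates 1 to 3 it was 3.82 (adjusted p = 0.0416). The P4M call was lost when Fgfr3-WT replicate 3 or 5, or P4M replicate 1 or 2, was left out, with adjusted p values up to 0.0802. Without an expression filter the adjusted p was 0.0581 in P4M and 0.0638 in all cKO. The call over all cKO clones was also lost in 7 fits that left out 1 clone, those without Fgfr3-WT replicate 1, 3 or 5, P28 replicate 4 or 5, or P4M replicate 1 or 2, with adjusted p values up to 0.0729. Exons of Pth1r overlap Myl3 on the other strand over 95 bases, 3.25% of its exon length, and the library kit does not mark strand.

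Gli1 (chr10:127329882-127341974), the Gli factor that is itself a target of the pathway, was at 0.260, 0.0382, 0.162, 0.341 and 0.672 CPM in Fgfr3-WT. In P28 it was at 0.709, 0.980, 0.953, 3.20 and 2.97 CPM, and in P4M at 5.05, 11.1, 2.29 and 3.72 CPM. No cKO clone overlapped Fgfr3-WT, and P28 replicates 1 to 3 were the cKO clones nearest to it. The log2 fold change was 2.57 ± 0.682 in P28 (edgeR, adjusted p = 0.00959) and 4.22 ± 0.736 in P4M (adjusted p = 0.000606). In the fit without P28 replicates 4 and 5 the P28 value was 1.55 and no longer passed (adjusted p = 0.1004), and P4M was then higher than P28 by 2.69 (adjusted p = 0.0457), against 1.65 with all clones (adjusted p = 0.134). Exons of other genes on the other strand cover 6.55% of its exon length.

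Gli2 (chr1:118834132-119053619) and Gli3 (chr13:15463235-15730026) gave no call in edgeR with all clones, all groups and the standard filter, although Gli2 had an unadjusted p of 0.0104 between P4M and P28 and Gli3 of 0.0422 and 0.0290 in P28 and in all cKO against Fgfr3-WT. DESeq2 called Gli2 in the first of these (adjusted p = 0.0133) and Gli3 in the last (adjusted p = 0.0466). The edgeR fit of P28 and P4M alone called Gli2 between them (adjusted p = 0.0359), and edgeR called Gli3 in all cKO without a filter (adjusted p = 0.0437) and with at least 10 counts in every clone (adjusted p = 0.0463). Limma on log2(TPM + 1) and log2(TPM + 0.1) called Gli3 in P28 (adjusted p = 0.0178 and 0.0166) and in all cKO (adjusted p = 0.0163 and 0.0147), and Gli2 between P4M and P28 (adjusted p = 0.0436 and 0.0414). The first of these scales also called Gli2 in P28 (adjusted p = 0.0478). Gli2 was at 1.46, 20.95, 2.95, 7.28 and 4.11 CPM in Fgfr3-WT, at 26.6, 22.2, 18.1, 10.99 and 3.82 CPM in P28, and at 3.25, 6.42, 1.88 and 1.24 CPM in P4M. Its largest difference was between P4M and P28 (log2 -2.36 ± 0.792, edgeR adjusted p = 0.0838), which passed without Fgfr3-WT replicate 2 (adjusted p = 0.0487). Without that clone Gli2 also passed in P28 against Fgfr3-WT (log2 2.04, adjusted p = 0.0278). Gli3 was at 76.1, 33.8, 51.5, 38.3 and 34.8 CPM in Fgfr3-WT, at 60.0, 54.0, 56.1, 78.6 and 85.4 CPM in P28, and at 56.5, 60.9, 80.8 and 64.9 CPM in P4M. Fgfr3-WT replicate 1 was the only control clone within the range of the cKO clones. Without it, Gli3 passed in P28 (log2 0.73, adjusted p = 0.00846) and in P4M (log2 0.72, adjusted p = 0.00902), against 0.51 and 0.49 with all clones (adjusted p = 0.0912 and 0.112). Over all cKO clones it passed without Fgfr3-WT replicate 1 (adjusted p = 0.00392) and without P28 replicates 1 to 3 (adjusted p = 0.0363).

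**Figure D2:**
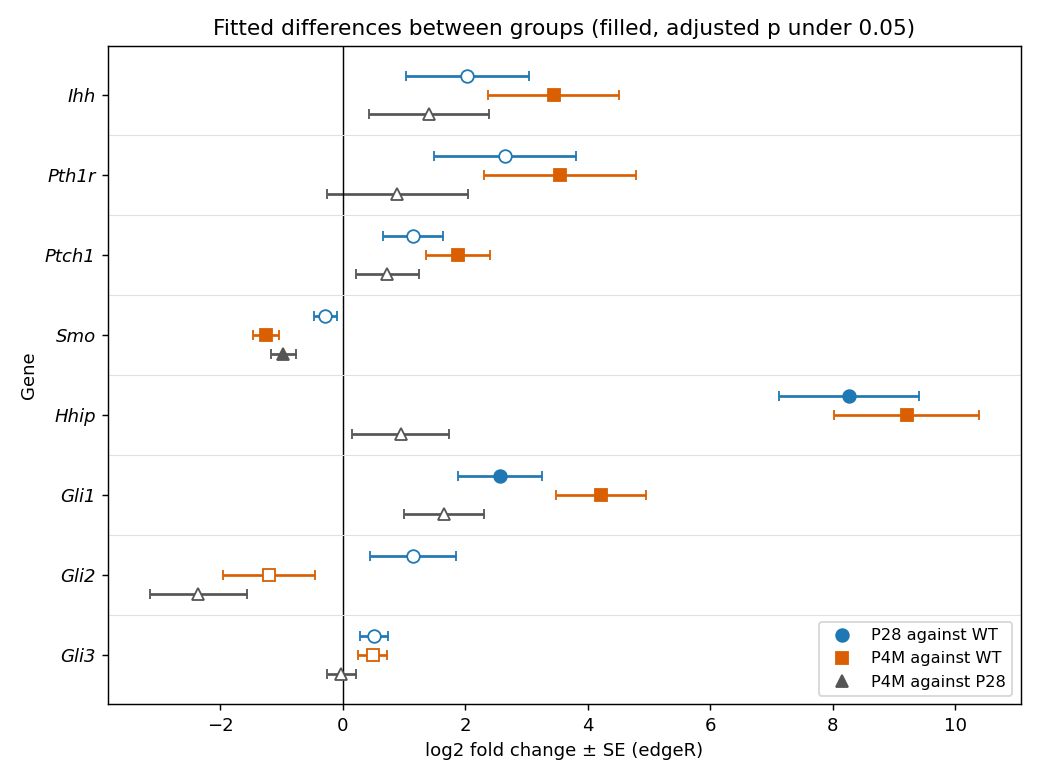
Log2 fold change ± SE from edgeR for the 8 tested genes in 3 comparisons, with filled symbols for an adjusted p under 0.05. Hhip and Gli1 were called in both cKO groups against Fgfr3-WT, and Smo was the single gene called between P4M and P28.

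On the per-length scale of TPM, Smo was the most abundant of the 9 genes in every Fgfr3-WT clone, with a median of 90.2 (49.3 to 95.03). It was followed there by Gli3 (median 6.85), Ptch1 (4.59), Pth1r (1.84), Gli2 (0.89), Ihh (0.13) and Gli1 (0.10). In that order the ranges of neighbours overlapped except between Smo and Gli3 and between Gli2 and Ihh. In P28 the order was Smo (median 81.9), Gli3 (12.5), Ptch1 (8.35), Pth1r (6.97), Gli2 (4.67), Hhip (3.72), Gli1 (0.48), Pthlh (0.18) and Ihh (0.12), and the ranges of neighbours overlapped except between Smo and Gli3. Pth1r exceeded Smo in P28 replicates 4 and 5. In P4M, Pth1r led with a median of 56.7 (24.2 to 125.7), above Smo at 38.4, Ptch1 at 17.2, Gli3 at 11.9, Hhip at 5.11, Ihh at 2.05, Gli1 at 1.79, Gli2 at 0.57 and Pthlh at 0.08. There the ranges of neighbours were apart between Gli3 and Hhip and between Gli2 and Pthlh. The levels of Pth1r and Smo overlapped, and Smo was the higher in P4M replicate 3.

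Within the Gli family, Gli3 was the most abundant transcript in all 14 clones by TPM. Gli1 lay above Gli2 in 0 of 5 Fgfr3-WT clones, in 1 of 5 P28 clones (replicate 5) and in 4 of 4 P4M clones. The share of Gli1 in the summed TPM of the family had a median of 0.679% in Fgfr3-WT, 2.78% in P28 and 12.9% in P4M. The ratio of Ptch1 to Smo in TPM had a median of 0.0514 (0.0392 to 0.0929) in Fgfr3-WT, 0.0894 (0.0656 to 0.350) in P28 and 0.448 (0.264 to 0.816) in P4M. These shares and ratios were not tested.

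**Figure D3:**
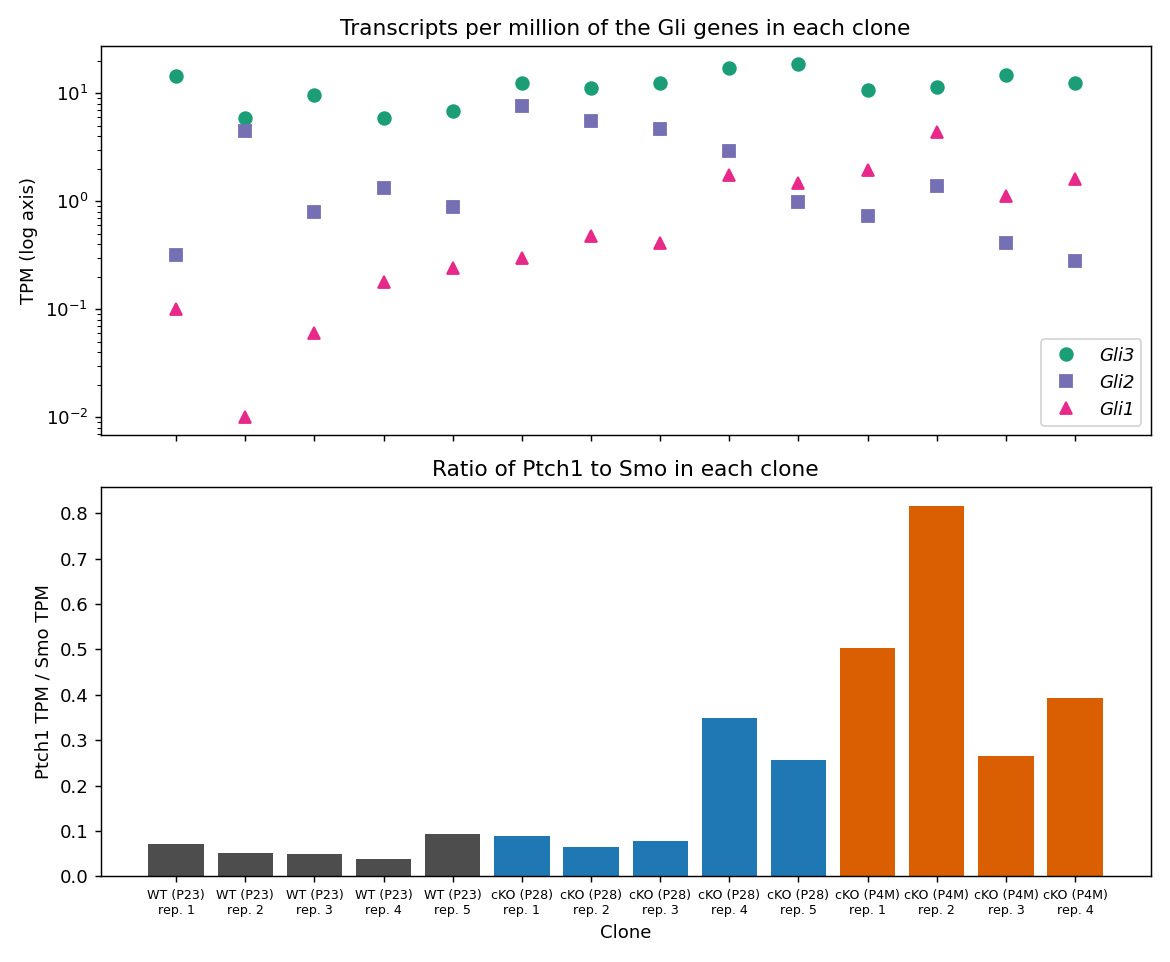
Upper plot, TPM of Gli1, Gli2 and Gli3 in each clone on a log axis. Lower plot, the ratio of Ptch1 TPM to Smo TPM in each clone, as bars from 0, where all P4M clones and P28 replicates 4 and 5 lay between 0.255 and 0.816 and all other clones between 0.0392 and 0.0929.

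Some bone-forming markers also separated the 2 sets of P28 clones. Of the 14 genes of the osteoblast list, 8 were higher in both replicates 4 and 5 than in each of replicates 1 to 3 (among them Runx2, Sp7, Alpl, Bglap, Ibsp and Dlx5). The sets also differed across all genes, and the share of all genes that separate them is not given here. The other 6 overlapped (Col1a1, Col1a2, Spp1, Dmp1, Phex and Mepe), with Col1a1 at 21999, 14734 and 20510 CPM in replicates 1 to 3 and 14671 and 17262 in replicates 4 and 5. Values follow for 3 of the 8, chosen after they were seen. Sp7, a transcription factor of osteoblasts, was at 3.38, 9.77 and 5.46 CPM in P28 replicates 1 to 3, at 292.8 and 289.4 in replicates 4 and 5, and at 132.3 to 665.9 in P4M. Alpl, the alkaline phosphatase of mineralizing cells, was at 30.5, 57.9 and 10.5 CPM in replicates 1 to 3, at 1857 and 916 in replicates 4 and 5, and at 1102 to 1378 in P4M. Bglap, an osteocalcin gene whose reads may be split with its near-identical copy Bglap2, was at 0.493, 0.167 and 0.384 CPM in replicates 1 to 3, at 93.8 and 101.7 in replicates 4 and 5, and at 137.6 to 290.0 in P4M. The P28 clones high in these 3 genes were also the highest in Ihh, Ptch1, Pth1r, Gli1, Gli3 and Hhip and the lowest in Smo, Gli2 and Pthlh. Pthlh had only 1 to 13 counts in these clones. For the 9 genes too this is a description without the share of all genes beside it. The part of osteoblast lineage state in the values of the 9 genes was not tested.

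Over the osteoblast list of 14 genes, 9 of 13 tested rose and Spp1 fell in all cKO against Fgfr3-WT. Of all genes tested in that comparison, 23.1% were called higher and 25.7% lower. The summed level was 1608, 3856, 1061, 2420 and 7888 CPM in Fgfr3-WT, 43438, 26397, 38483, 35569 and 34269 CPM in P28, and 50259, 89037, 18140 and 33563 CPM in P4M. By mean CPM the most abundant gene was Spp1 in Fgfr3-WT, at 2107, and Col1a1, type I collagen, in P28 and P4M, at 17835 and 25147. Spp1, the gene that fell, led in 4 of the 5 control clones, and Col1a2, at 4351 CPM, in replicate 5. The sum did not separate the 2 sets of P28 clones, unlike Sp7, Alpl and Bglap. Of the chondrocyte list of 17 genes, 13 of 15 tested fell and none rose in the same comparison. Its sum was 1847, 8043, 9960, 29813 and 1686 CPM in Fgfr3-WT, 1561, 733, 1013, 1542 and 402 CPM in P28, and 126.6, 645.9, 47.4 and 82.2 CPM in P4M. Col2a1, type II collagen, was its most abundant gene by mean CPM in Fgfr3-WT and P28 (6950 and 749), and Col11a2, another cartilage collagen gene, in P4M (172, against 24.4 for Col2a1). Sox9, the master regulator of chondrocytes, fell by 2.78 on the log2 scale (edgeR, adjusted p = 0.000185).

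Among the other markers, the proliferation genes rose in 4 of 4 in all cKO against Fgfr3-WT. The counts of this paragraph stand beside 23.1% of all genes called higher and 25.7% called lower there. By mean CPM Pcna was the most abundant of them in Fgfr3-WT (63.7) and Top2a in P28 and P4M (180 and 230), and their sum had a median of 99.5 CPM in Fgfr3-WT, 511 in P28 and 599 in P4M. Of the 5 hypertrophic genes, 1 rose and 2 fell, with Spp1 the most abundant in each group and sums with medians of 2286, 553 and 1646 CPM. Of 9 tested reticular and adipocyte genes, 2 rose and 2 fell, with sums with medians of 360, 644 and 340 CPM. Foxc1 was their most abundant gene by mean CPM in Fgfr3-WT (174, against 50.6 for Cxcl12) and Cxcl12 in P28 and P4M (402 and 191). Haematopoietic genes were low, with Lyz2 the most abundant in each group and sums with medians of 56.4, 9.91 and 6.65 CPM. Cd3e was listed in TPM alone, at 0.05 in Fgfr3-WT replicate 3 and at 0 in the other 13 clones. Endothelial genes had sums with medians of 1.74, 2.62 and 10.5 CPM, below the haematopoietic sums in Fgfr3-WT and above them in every P4M clone. P4M replicate 3 was at 249.6 CPM, mostly from Vwf, and Cdh5 was at 0 in every clone. By mean CPM Vwf led in Fgfr3-WT and P4M and Kdr in P28. The part of proliferation or of other cell types in the values of the 9 genes was not tested.

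Beyond the 9 genes, 110 genes of 8 pathway lists were followed, of which 99 were tested. In all cKO against Fgfr3-WT 32 were higher and 19 lower, or 51.5% against 48.8% of all genes, so that their share of calls was near the background. In P28 36 were called (26 higher, 10 lower), or 36.4% against 38.9% of all genes. In P4M 44 were called (24 higher, 20 lower), or 44.4% against 45.9%, and between P4M and P28 8 (3 higher, 5 lower), or 8.08% against 7.22%. These shares were near the background too.

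The other ligands were scarce. Shh had 0 counts in every clone, and Dhh had 3, 10 and 2 counts over the Fgfr3-WT, P28 and P4M clones. Of 5 tested genes for ligand processing and release, 3 were higher and 1 lower in all cKO. Disp1, which exports lipid-modified ligand, rose from 28.0 ± 13.6 CPM (SD, n = 5) in Fgfr3-WT to 54.7 ± 5.54 (n = 5) in P28 and 62.4 ± 5.32 (n = 4) in P4M (log2 1.06, edgeR adjusted p = 0.00163). Scube3, a secreted protein of the family that helps to release ligand, rose from 0.480 ± 0.242 to 7.54 ± 6.15 and 5.33 ± 2.37 CPM (log2 3.72, adjusted p = 0.00156). Scube2, of the same family, had 3 counts over all Fgfr3-WT clones and 73 and 35 over the P28 and P4M clones, a ratio of 16.3 (95% counting interval 5.37 to 80.9) and 8.82 (2.78 to 44.8). The P4M ratio was 4.85 without replicate 4. Hhat, which adds palmitate to the ligand, fell by 1.15 on the log2 scale (adjusted p = 0.00600), and Scube1 did not pass (log2 -1.44, adjusted p = 0.259).

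In reception, none of the 4 co-receptor genes tested was called in all cKO against Fgfr3-WT, and none had an unadjusted p under 0.05 in edgeR or was called by DESeq2. Without P28 replicates 1 to 3, Gas1 was called there as lower (log2 -1.42, edgeR adjusted p = 0.0246), and also in P4M against Fgfr3-WT (log2 -1.36, adjusted p = 0.0407). Without P28 replicates 4 and 5 it was instead called as higher in P28 than in Fgfr3-WT (log2 1.71, adjusted p = 0.0454) and as lower in P4M than in P28 (log2 -3.08, adjusted p = 0.0170). Cdon and Boc, which present ligand to Patched, were at 66.8 ± 28.5 and 57.3 ± 23.1 CPM (SD, n = 5) in Fgfr3-WT and differed by 0.01 and 0.17 on the log2 scale. Gas1, a membrane-anchored co-receptor, ranged from 33.0 to 725 CPM among the P28 clones and was at 147 ± 89.4 CPM in Fgfr3-WT and 57.2 ± 14.5 CPM in P4M. Lrp2, an endocytic receptor, was higher in P28 (log2 2.91 ± 0.812, edgeR adjusted p = 0.0125) and not in P4M (log2 -0.10, adjusted p = 0.931). Without P28 replicates 1 to 3 the P28 call was lost (log2 1.71, adjusted p = 0.182). The difference between P4M and P28 itself did not pass (log2 -3.01, adjusted p = 0.0557), although it did without P28 replicates 4 and 5 (log2 -3.44, adjusted p = 0.0388). Gpc3, a cell-surface proteoglycan, was too low to be tested, with 11, 34 and 12 counts over the Fgfr3-WT, P28 and P4M clones.

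Of 18 transduction genes, all tested, 5 were higher and 2 lower in all cKO. Gpr161, a ciliary receptor that restrains the pathway, rose by 1.11 on the log2 scale (edgeR, adjusted p = 0.00273), Arrb2, a beta-arrestin, by 0.72 (adjusted p = 0.0130), Cul3, the scaffold of a ubiquitin ligase, by 0.71 (adjusted p = 0.000139) and Csnk1a1, a casein kinase, by 0.63 (adjusted p = 0.000887). Tulp3, which carries receptors into the cilium, fell by 0.73 (adjusted p = 0.00312). The kinase gene Stk36 fell by 0.59 (adjusted p = 0.0113) and was also lower in P4M than in P28 (log2 -0.74, adjusted p = 0.0468). Of 18 genes of the primary cilium, 1 was higher and 6 lower, against 0 and 4 without Fgfr3-WT replicate 2 and 2 and 3 in limma on either TPM scale. Fuz, a planar polarity effector needed for cilium assembly, fell from 33.5 ± 12.3 CPM in Fgfr3-WT to 13.7 ± 4.09 in P28 and 6.72 ± 0.798 in P4M (log2 -1.81, adjusted p = 5.14e-05), and was lower in P4M than in P28 (log2 -1.03, adjusted p = 0.0470). Tctn1 and Mks1 of the ciliary transition zone fell by 1.18 and 0.96, and Ift122 of the intraflagellar transport complex by 1.17. Ift80, of the same transport machinery, was the gene that rose (log2 0.42, adjusted p = 0.0246).

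Among 9 tested genes described as Hedgehog targets in other tissues, 4 were higher and 2 lower in all cKO. Bmp4, a bone morphogenetic protein, went from 0.674 ± 1.18 CPM in Fgfr3-WT to 49.0 ± 24.4 in P28 and 70.8 ± 29.3 in P4M (log2 6.48, edgeR adjusted p = 0.000159). The forkhead genes Foxl1 and Foxf2 rose by 1.84 and 1.34, and Bcl2, an inhibitor of cell death, by 0.58. Foxc1, another forkhead gene, and Ccnd2, cyclin D2, fell by 1.03 and by 0.90 on the log2 scale.

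On the side of parathyroid hormone, Pth and Pth2 were listed in TPM alone and stood at 0 in every clone. Pth2r, a second receptor of the family, had 14, 52 and 54 counts over the Fgfr3-WT, P28 and P4M clones and did not pass (log2 1.24, edgeR adjusted p = 0.161). Of 33 transduction genes downstream of Pth1r, all tested, 14 were higher and 6 lower in all cKO. Adcy3, an adenylyl cyclase that makes cyclic AMP, rose from 7.13 ± 6.14 CPM in Fgfr3-WT to 50.2 ± 8.14 in P28 and 137 ± 20.2 in P4M (log2 3.54, adjusted p = 6.17e-05). Adcy4, another adenylyl cyclase, had 0 counts in all Fgfr3-WT clones and was at least 46.5-fold higher in P28 and at least 82.1-fold higher in P4M, against 3 counts over the group. Of the 326 P4M counts 312 were in replicate 3, without which the bound was 4.79-fold. Mef2c and Hdac4, a transcription factor of chondrocyte and bone maturation and the deacetylase that binds it, rose by 2.33 and 1.23 on the log2 scale. Pde3a, a phosphodiesterase that degrades cyclic nucleotides, fell by 3.02, and Pde4b of the same superfamily fell by 1.41. The adenylyl cyclase gene Adcy9 fell by 0.998 and the salt-inducible kinase gene Sik2 by 0.93. Between P4M and P28, Hdac4 and Plcb1, a phospholipase C, were higher in P4M (log2 1.01 and 0.73, adjusted p = 0.0111 and 0.0163), and Pde3a and Zfp521, a zinc finger regulator, were lower (log2 -3.56 and -2.77, adjusted p = 0.0366 and 0.0222).

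Of 11 tested genes known to respond to parathyroid hormone, 5 were higher and 2 lower in all cKO. The nuclear receptor genes Nr4a3, Nr4a1 and Nr4a2 rose by 3.39, 2.46 and 1.63 on the log2 scale, Ptgs2, a prostaglandin synthase, by 2.11, and Vdr, the vitamin D receptor gene, by 1.63 (edgeR, adjusted p = 0.0443). Nr4a1 was lower in P4M than in P28 (log2 -1.45, edgeR adjusted p = 0.0487). Tnfrsf11b, which encodes the RANKL decoy receptor osteoprotegerin, fell from 490 ± 311 CPM in Fgfr3-WT to 31.4 ± 12.1 in P28 and 34.3 ± 25.5 in P4M (log2 -3.90, adjusted p = 4.27e-05). Crem, a cyclic AMP responsive modulator, fell by 0.67 (adjusted p = 0.00841).

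**Figure D4:**
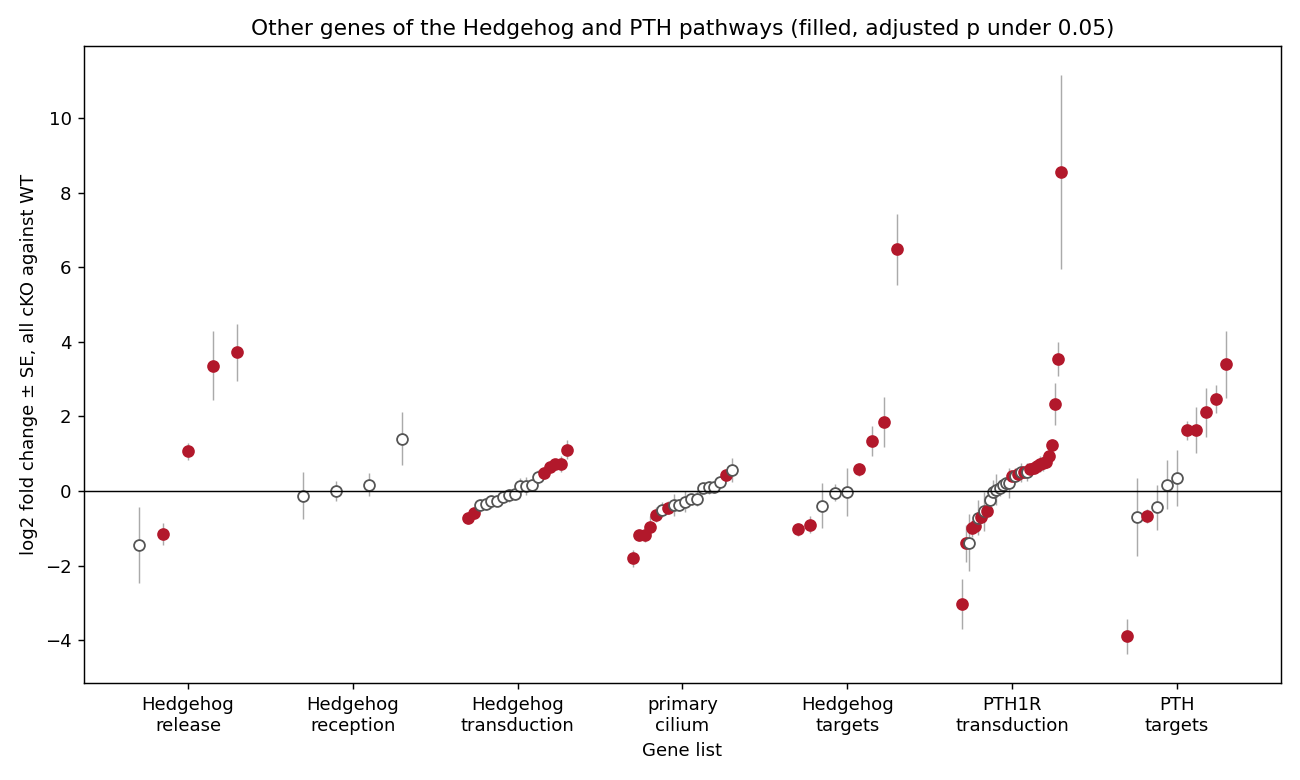
Log2 fold change ± SE (edgeR) in all cKO against Fgfr3-WT for the tested genes of 7 pathway lists, 1 point a gene, ordered by value within a list, filled for an adjusted p under 0.05. Cilium genes had 1 call above and 6 below 0 (0 and 4 without Fgfr3-WT replicate 2, and 2 and 3 in limma on TPM), and no reception gene was called.

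For each tested gene, the genes with the most similar pattern were sought by the root mean square difference of z-scored log2 CPM over the 14 clones, among the other 17357 genes. They were Fezf2, Myl3 and Oxct2a for Ihh, and Smad6, Soga3 and Tle3 for Ptch1. Myl3 shares 95 exon bases with Pth1r on the other strand, and the library kit does not mark strand. For Gli1 they were Ubash3b, Prelid3b and Phospho1, a phosphatase of mineralizing cells, and for Hhip Exosc10, Edn1 and Trip13. Pth1r was followed most closely by Sncaip, Csk and Ppm1b, and Gli3 by Dhx8, Styx and Prkab1. Sec23ip, Zfp324 and Col2a1 were nearest to Smo, and Arxes1, Gm15612 and Abca9 stood nearest to Gli2. The distances of these 24 genes ranged from 0.164 for Exosc10 to 0.458 for Abca9. Among pairs of the 8 genes themselves, the closest were Ptch1 with Gli1 at 0.532, Ihh with Ptch1 at 0.540 and Gli1 with Hhip at 0.566. All these points share the same 14 libraries, and the 3 groups and the 2 sets of P28 clones enter every such distance.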

How the data were processed

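The 14 libraries were made with the SMART-Seq v4 kit and sequenced as single-end reads. Per the methods and the submitters' processing notes, the authors ran FastQC on the reads, placed them on mm10 by TopHat, which calls Bowtie2, tallied reads of unambiguous origin per gene by HTSeq, and compared groups by DESeq2. The versions are not given in the sources used here. The raw counts deposited by the authors are whole numbers without normalization. The TPM values deposited by the authors were scaled for transcript length and depth by a program that is not stated, and they served for levels between genes. The FPKM, depth-normalized, rlog and expected count tables were not used.

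Genes were tested in R 4.3.3 with edgeR 4.0.16 (quasi-likelihood F-test, TMM, filterByExpr with the 3 groups, robust), in 1 model with 3 group means over all 14 clones. This left 17358 genes, over which p values were adjusted by the Benjamini-Hochberg method, with calls at 0.05. SE is the absolute log2 fold change over the root of F. The steps were tested on simulated data, where 94.5% to 100% of 4-fold but only 30.4% to 61.5% of 2-fold changes were called, depending on the comparison. The simulation gave every gene the same spread, so that these rates need not hold for genes that vary widely between clones. Alternatives were DESeq2 1.42.0, limma 3.58.1 on log2 TPM, other scalings and filters, and leaving out clones. The 2 fits without a set of P28 clones were chosen after seeing the data.

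The 9 genes and all lists were chosen with earlier results of these data known. Named besides the 9 were all genes of lists of up to 7 (1 gene too low to be tested is not reported here), the 4 called genes of largest change per direction of longer lists (2 for P4M against P28), the 3 nearest genes, and each marker list's most abundant gene and those at 0. Dmp1, Phex and other called markers are not all named, and Nr4a2, Sp7, Alpl, Bglap, Sox9, the other osteoblast genes and the transgenes were chosen after their values were seen. Positions are from GENCODE M21 (mm10) and promoters from RefSeq (GRCm38.p6). A count of 0 allows up to 3 counts, and intervals at 95% cover counting error only, since reads without molecular identifiers are not independent molecules. Self-written steps used Python 3.11.15 with numpy 2.4.6, pandas 2.3.3, scipy 1.17.1 and matplotlib 3.10.9.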

Additional observations from a re-analysis of the deposited data

Results flagged for a closer look

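Smo in Fgfr3-WT replicate 1 was at 119.3 CPM, far below the other 4 Fgfr3-WT clones. Hhip in Fgfr3-WT replicate 4 was at 0.171 CPM, from 6 counts, while the other 4 Fgfr3-WT clones were at 0. These were 2 of 27 groups of clones examined for a single distant clone, and chance gives about 1 in 20. That rate holds for Smo but not for Hhip, where any single clone above 0 stands apart from clones at 0. The change of Smo against Fgfr3-WT differed between the 2 cKO groups, by -0.97 on the log2 scale between P4M and P28 (edgeR, adjusted p = 0.0157).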

How the results depend on the processing

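The 32 log2 fold changes of the 8 tested genes were compared under 25 alternatives, which gave 775 values, of which 700 kept their direction and their side of the threshold. The minimum absolute log2 fold change of 1 was applied to the main fit, so that no direction could change there. Some fits left out a clone from a group outside the comparison. Ihh, Ptch1, Gli1 and Hhip stayed called as higher in P4M against Fgfr3-WT, and Smo as lower, under every alternative that tested them. For Ihh and Ptch1 the edgeR adjusted p came close to the threshold, at up to 0.0482 and 0.0425 with 1 clone left out. With a minimum absolute log2 fold change of 1, 4040, 5149 and 4723 genes were called in P28, P4M and all cKO against Fgfr3-WT, and 0 of the 9 genes between P4M and P28, beside 883 (5.09%) of all genes. Requiring at least 10 counts in every clone removed Gli1, Hhip, Ihh and Pth1r, which left 0, 2 and 3 of 4 tested called in P28, P4M and all cKO against Fgfr3-WT, beside 41.4%, 48.5% and 51.2% of all genes. With a minimum absolute log2 fold change of 1, 3 of 18 cilium, 1 of 18 Hedgehog transduction and 6 of 33 Pth1r transduction genes were called in all cKO. The share of all genes called there was 27.2%. Between P4M and P28, the fit of only these groups called 3051 genes (18.3%, with 2 of the 9) and DESeq2 2814 (9.41%, with 2 of the 9), against 1254 (7.22%, with 1 of the 9). Limma on log2(TPM + 1) and log2(TPM + 0.1) called 5 and 4 of the 9 in P28, beside 40.8% and 41.6% of all genes, and 2 and 2 between P4M and P28, beside 9.04% and 9.63%. On these scales the median of all genes in P28 against Fgfr3-WT moved by 0.22 and 0.32, and Smo, at 0.0402 and 0.0411, stayed below that median while turning positive. Their share of higher among called genes was 72.6% and 73.7% in P28 against Fgfr3-WT (49.4% in the main fit), 64.3% and 65.0% in all cKO (47.4%) and 23.9% and 21.9% between P4M and P28 (46.3%). With library totals as the scale the last was 33.2%.

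Differences near 0 changed sign. Gli2 in all cKO was 0.0555 with library totals, 0.0424 without a filter, 0.33 and 0.43 in TPM, 0.17 without P28 replicates 4 and 5, and -0.32 to 0.86 when 1 clone was left out. Gli3 between P4M and P28 was 0.0103 without a filter, 0.25 without P28 replicates 4 and 5, and -0.13 to 0.11 when 1 clone was left out. Without P28 replicates 4 and 5, Ihh in P28 was -1.31, and 1 of the 9 was called in P28, beside 28.5% of all genes, and 3 between P4M and P28, beside 8.75%. Without P28 replicates 1 to 3, 4459 genes (24.5%) and 5 of the 9 were called in P28, 115 genes (0.633%) and 0 of the 9 between P4M and P28, and Ptch1 and Pth1r there were -0.0376 and -0.27. Leaving out 1 clone gave 2 to 4 of the 9 in P28, beside 33.6% to 41.7% of all genes. Between P4M and P28 it gave 0 to 2 of the 9. The genes called there numbered 480 (2.7%, without P4M replicate 1) to 2132 (12.3%, without Fgfr3-WT replicate 1). The causes were not tested. No paired analysis was possible because the labels number no replicates and the numbers used here follow accession order.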
